A study of Mus musculus with 2 samples.

Results

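A small set of cells in the Sim1 lineage of the newborn mouse hypothalamus held RNA of the genes for making and packaging the inhibitory transmitter GABA. They were chosen by their UMI counts (unique molecular identifiers, each marking 1 captured RNA molecule) in a Drop-seq table, as cells with at least 300 detected genes and at least 2 UMIs summed over Slc32a1, Gad1 and Gad2. This gave 112 of 5260 cells, of which 59 were among 2454 cells of the Sim1 heterozygous library and 53 among 2806 cells of the control library. They are called GABA-gene cells below, because the data bore out the name GABAergic for some of them only. Those that held a Slc32a1 UMI (42 cells) carried most UMIs of Dlx1 and Dlx6 and little Slc17a6, whereas those that held only Gad1 or Gad2 UMIs (70 cells) had as much of the glutamate transporter gene Slc17a6 as the rest of the lineage. The first are called Slc32a1+ cells and the second Gad-only cells. This division was made after the values were seen.

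Gad1 and Gad2 encode glutamic acid decarboxylases, which make GABA from glutamate, and Slc32a1 encodes the transporter (VGAT) that loads GABA into synaptic vesicles. Slc17a6 encodes VGLUT2, which loads glutamate, and marks most excitatory neurons of the hypothalamus. Sim1 is a transcription factor needed to form the paraventricular nucleus, whose neurons are mostly glutamatergic, while GABAergic neurons of the ventral forebrain and hypothalamus are specified by homeodomain factors such as Dlx1, Dlx2 and Isl1.

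The Sim1 heterozygous library came from Sim1-Cre;tdTomato+/-;Sim1+/- pups and the control library from Sim1-Cre;tdTomato+/- pups. All were of the outbred stock CD-1, aged postnatal day 1 to 4, and each library pooled 6 pups. Both carried the Sim1-Cre driver and the Ai14 reporter, and viable tdTomato+ cells were sorted, so a cell was included if it or a precursor had switched on Cre, whether or not it still made Sim1. With 1 library per genotype there was no replicate check, every difference between genotypes compares 2 pools, and the intervals below are exact 95% intervals that cover counting error only.

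The median cell had 1583 UMIs in the Sim1 heterozygous library and 1772.5 UMIs in the control library, and no barcode was shared between them. Sim1 itself had 92.1 CPM (UMIs per 1000000 summed UMIs) in the other Sim1 heterozygous cells and 113 CPM in the other control cells. The labels do not say which part of Sim1 the mutant allele lacks, so the 3' tags are no check of the genotype. Astrocyte or radial glia-like cells, a cluster of 111 cells named from Gfap, Aqp4, Fabp7 and Slc1a3, should lack both transmitter systems and served as a measure of free RNA. Of these, 1 of 56 Sim1 heterozygous and 3 of 55 control cells held a single UMI of the 3 GABA genes and none held 2, at median depths of 903.5 and 1350 UMIs. So few cells allow a share of up to 5.36% (Sim1 heterozygous) and 5.45% (control) with 2 UMIs, above the shares of GABA-gene cells given next. The glia-like cells therefore cannot tell how many GABA-gene cells free RNA could give, and they were shallower.

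The share of GABA-gene cells was 2.40% in the Sim1 heterozygous library (interval 1.84% to 3.09%) and 1.89% in the control library (interval 1.42% to 2.46%). The ratio of these shares was 1.27, with an interval of 0.863 to 1.88 that contains 1. When every cell was thinned to 857 UMIs, 19 of 1841 Sim1 heterozygous cells (1.03%) and 14 of 2650 control cells (0.528%) still passed, a ratio of 1.95 with an interval of 0.929 to 4.21. The share therefore depended on depth, and a difference between the libraries was not detectable at this depth. Just outside the gate, with 1 UMI, stood 75 Sim1 heterozygous and 78 control cells. Just inside it, with 2 UMIs, stood 15 Sim1 heterozygous and 21 control cells, and the highest cell had 14 UMIs in each library. The gate favoured cells with more RNA, as the median GABA-gene cell had 3117 UMIs in the Sim1 heterozygous library and 2464 UMIs in the control library, against 1552 and 1764 UMIs in the other cells of the same libraries.

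**Figure D1:**
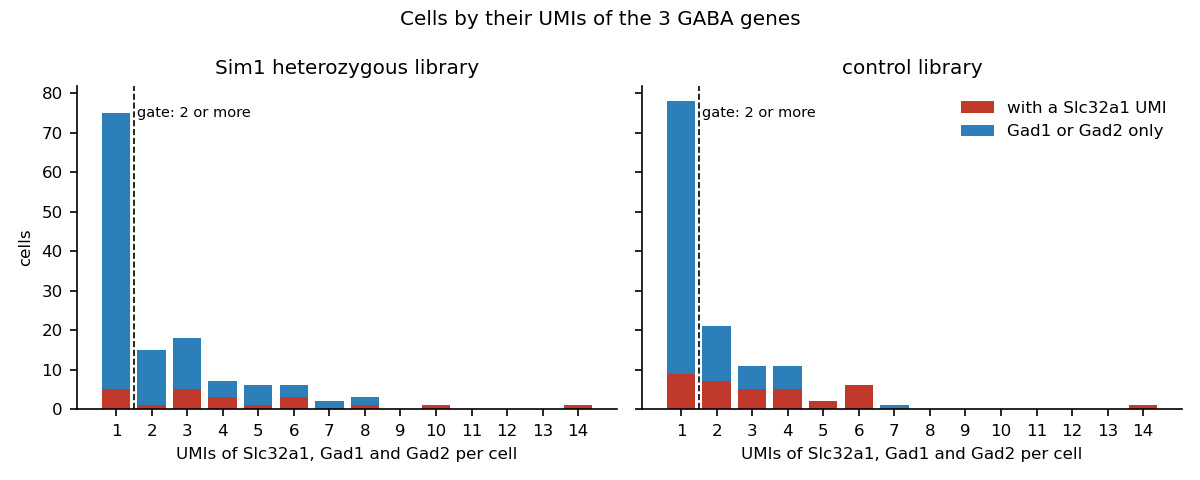
Number of cells (vertical axis) by their UMIs summed over Slc32a1, Gad1 and Gad2 (horizontal axis) in the Sim1 heterozygous and control libraries, with cells that hold a Slc32a1 UMI in red and cells with Gad1 or Gad2 UMIs only in blue. The dashed line is the gate of 2 UMIs, which 75 Sim1 heterozygous and 78 control cells missed by 1 UMI.

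Gad2 gave most of the UMIs that chose the cells. In the Sim1 heterozygous library Gad2 had 204 UMIs in 56 of 59 GABA-gene cells, and in the control library it had 128 UMIs in 45 of 53. Slc32a1 had 28 UMIs in 16 Sim1 heterozygous cells and 46 UMIs in 26 control cells. Gad1 was the sparsest, with 8 UMIs in 6 Sim1 heterozygous cells and 12 UMIs in 7 control cells. A cell with UMIs of all 3 genes was rare at this depth: 5 Sim1 heterozygous and 1 control cell. Gad2 alone qualified 42 Sim1 heterozygous cells (71.2%) and 23 control cells (43.4%). These values were used to choose the cells and are given as a description. In mm10 with GENCODE M21, all 3 genes lie on the plus strand of chromosome 2, Slc32a1 from 158610767 to 158615748, Gad1 from 70553072 to 70602014 and Gad2 from 22622205 to 22693874. Slc32a1 and Gad1 overlap the antisense genes Gm14205 and Gad1os. The strand setting of the counting is not stated, so reads of the overlapping parts cannot be told apart.

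Slc17a6, which the gate did not use, was common in GABA-gene cells. At full depth 38 of 59 Sim1 heterozygous GABA-gene cells (64.4%) and 21 of 53 control GABA-gene cells (39.6%) held a Slc17a6 UMI, against 63.0% and 59.7% of the other cells. Since GABA-gene cells were deeper, the shares were compared after thinning each cell to 857 UMIs. They were then 16 of 53 in the Sim1 heterozygous library (30.2%, interval 18.3% to 44.3%) and 11 of 53 in the control library (20.8%, interval 10.8% to 34.1%). The other cells had 46.0% (interval 43.7% to 48.4%) in the Sim1 heterozygous library and 36.5% (interval 34.6% to 38.4%) in the control library. The intervals of GABA-gene and other cells overlapped slightly in the Sim1 heterozygous library and did not overlap in the control library. The summed level gave the same order, at 563 CPM (interval 467 to 674) in Sim1 heterozygous GABA-gene cells and 476 CPM (interval 376 to 595) in control GABA-gene cells, against 792 and 610 CPM in the other cells. The log2 ratio of GABA-gene over other cells was -0.48 (interval -0.77 to -0.23) in the Sim1 heterozygous and -0.34 (interval -0.70 to -0.03) in the control library.

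That average joined unlike cells. Only 3 of 16 Sim1 heterozygous and 3 of 26 control Slc32a1+ cells held a Slc17a6 UMI, at 107 CPM (interval 29.2 to 274) and 62.8 CPM (interval 17.1 to 161). In Gad-only cells Slc17a6 was found in 35 of 43 Sim1 heterozygous cells at 661 CPM and in 18 of 27 control cells at 746 CPM. Over both libraries Slc32a1+ cells had 79.1 CPM of Slc17a6 (interval 34.2 to 156), Gad-only cells 692 CPM (interval 596 to 798) and all other cells 691 CPM (interval 676 to 707). The Gad-only cells thus had the level of the whole lineage, and the Slc32a1+ cells had a level whose interval contained that of the glia-like cells, 126 CPM. Of the 20 Slc17a6 UMIs of the glia-like cells 11 were in 1 control cell, and without it their level was 59.3 CPM (interval 27.1 to 113), which the interval of the Slc32a1+ cells contained as well. The cell was left out after the values were seen. After thinning, a Slc17a6 UMI was left in 3 of 39 Slc32a1+ cells (7.69%, interval 1.62% to 20.9%), in 24 of 67 Gad-only cells (35.8%, interval 24.5% to 48.5%) and in 3 of 84 glia-like cells (3.57%). At these counts Slc17a6 in Slc32a1+ cells cannot be told apart from free RNA. Gad-only cells were also the deepest, with a median of 3385.5 UMIs against 2083 UMIs in Slc32a1+ cells, and doublets could not be removed (the caller marked 6 of 5260 cells, none of them a GABA-gene cell). Without the 5% of barcodes with the most UMIs, the thinned share of GABA-gene cells with Slc17a6 was 28.9% in the Sim1 heterozygous and 19.1% in the control library. Doublets of lower depth cannot be told apart from cells that hold both RNAs.

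**Figure D2:**
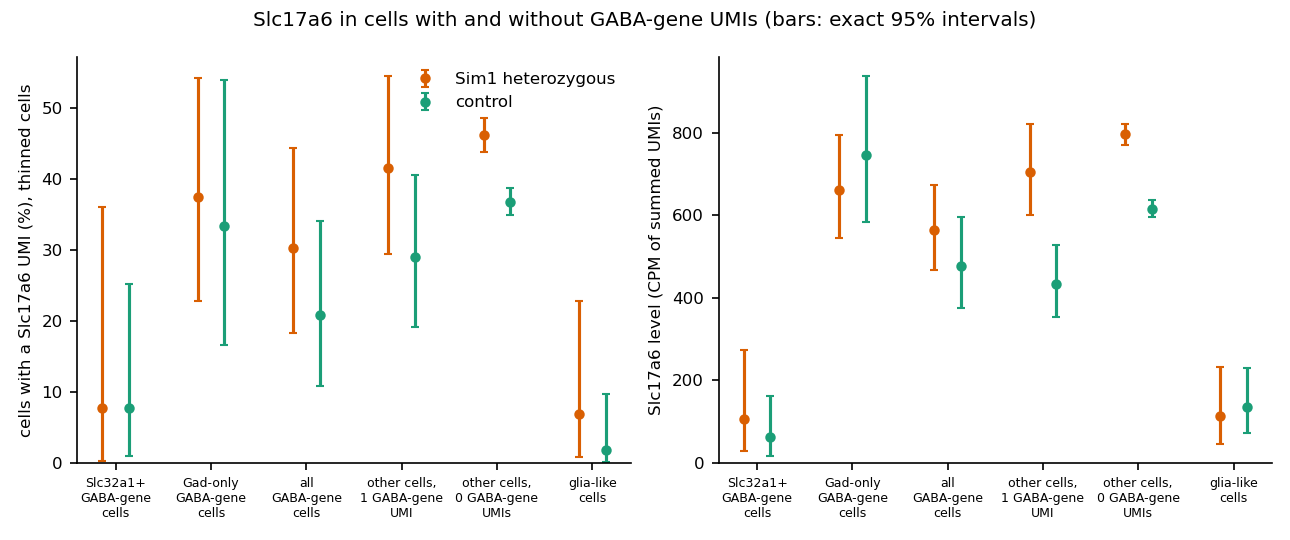
Share of cells with a Slc17a6 UMI after thinning each cell to 857 UMIs (left, percent) and the Slc17a6 level (right, CPM of summed UMIs) in 6 sets of cells, Sim1 heterozygous in orange and control in green, with exact 95% intervals. Slc32a1+ cells lie beside the glia-like cells in both panels (79.1 and 126 CPM over both libraries), and Gad-only cells lie beside the other cells (692 and 691 CPM).

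Just outside the gate the contrast was not resolved. Of 14 cells whose only GABA-gene UMI was of Slc32a1, 5 held a Slc17a6 UMI (35.7%), at 396 CPM (interval 204 to 691). Of 139 cells whose only such UMI was of Gad1 or Gad2, 86 did (61.9%), at 583 CPM (interval 513 to 659). The intervals overlapped, and the first set was shallower, with a median of 1626.5 UMIs against 2293 UMIs. After thinning to 857 UMIs, 3 of 13 (23.1%) and 46 of 128 (35.9%) of these cells held Slc17a6, and after thinning to 1583 UMIs 4 of 7 (57.1%) and 54 of 102 (52.9%) did. Within the gate, the cells with 5 or more GABA-gene UMIs differed between libraries: 11 of 19 Sim1 heterozygous cells and 1 of 10 control cells held Slc17a6. In the control library 9 of those 10 cells were Slc32a1+, and in the Sim1 heterozygous library 7 of the 19 were.

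The make-up of the GABA-gene cells also differed between the libraries. Slc32a1+ cells were 16 of 59 in the Sim1 heterozygous library (27.1%, interval 16.4% to 40.3%) and 26 of 53 in the control library (49.1%, interval 35.1% to 63.2%). As a share of all cells they were 0.652% of the Sim1 heterozygous and 0.927% of the control library, a ratio of 0.704 whose interval of 0.353 to 1.36 contains 1. Gad-only cells were 1.75% of the Sim1 heterozygous library and 0.962% of the control library, a ratio of 1.82 with an interval of 1.10 to 3.06. Of the 2 kinds, only Gad-only cells had a higher share in the Sim1 heterozygous library, while a difference in the total share was not detectable. The split was made after the values were seen, and the Gad-only shares were not compared after thinning. The intervals cover counting error only, and differences between the pools in depth, dissociation or sorting cannot be told apart from genotype.

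The Sim1 UMIs of GABA-gene cells were all in Gad-only cells. In GABA-gene cells as a whole it had 17 UMIs in 13 of 59 Sim1 heterozygous cells (80.5 CPM) and 16 UMIs in 11 of 53 control cells (99.0 CPM), close to the other cells (log2 ratios -0.12 and -0.10, with intervals that contain 0). All 33 of these UMIs were in 24 Gad-only cells, which had 121 CPM over both libraries. The 42 Slc32a1+ cells had 0 Sim1 UMIs, which the floor of 3 UMIs over both libraries sets at 29.7 CPM. At that floor the level was 4.09-fold lower than in Gad-only cells and 3.48-fold lower than in all other cells. These folds leave out counting error: the exact intervals reached 36.5 CPM in Slc32a1+ cells and began at 83.6 CPM in Gad-only cells. Within the Sim1 heterozygous library the difference was not resolved, since the interval of the 16 Slc32a1+ cells reached 98.8 CPM, against 97.7 CPM in Gad-only cells. In the control library the interval of the 26 Slc32a1+ cells reached 57.9 CPM, against 163 CPM in Gad-only cells (interval 93.4 to 265). Irx3 and Irx5, the transcription factor genes named in the study's title, had 0 UMIs in the 112 GABA-gene cells and at most 3.48 CPM in the other cells of either library. Over the 112 cells the floor of 3 UMIs is 8.04 CPM, above that level, so these zeros cannot show a lower level.

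The Dlx factors were found mostly in the Slc32a1+ cells. Dlx1, a specifier of forebrain GABAergic neurons, had 14 UMIs in 7 Sim1 heterozygous and 19 UMIs in 11 control GABA-gene cells, against 2 UMIs and 19 UMIs in all other cells of the same libraries. Its log2 ratio over other cells was 6.94 (interval 5.30 to 10.60) in the Sim1 heterozygous and 5.30 (interval 4.30 to 6.30) in the control library. Dlx1 had too few UMIs for the main comparison. It was ranked among low-count genes that needed a minimum of UMIs in GABA-gene cells, which favours high ratios. Between the kinds of GABA-gene cells, Dlx1 had 257 CPM in Slc32a1+ and 25.8 CPM in Gad-only cells over both libraries. The Gad-only level (interval 10.4 to 53.1, 5 of 70 cells) was still above the 1.82 CPM of all other cells (interval 1.13 to 2.78). Dlx6, another gene of the family, followed the same order, with 79.1 CPM in Slc32a1+ and 11.0 CPM in Gad-only cells. This rests on few UMIs, as 11.0 CPM in Gad-only cells is the level of 3 UMIs, the floor given to a count of 0. Meis2, a homeodomain factor of striatal and other GABAergic precursors, had 7 UMIs in 4 Slc32a1+ cells, all of the control library, and none in Gad-only cells. Other factors of the fixed list did not follow this order: Nkx2-1, a factor of the ventral forebrain and hypothalamus, had 0 UMIs in Slc32a1+ cells and 17 UMIs in 12 Gad-only cells.

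Isl1, a LIM homeodomain factor of ventral hypothalamic neurons, had the highest ratios of the 5 fixed markers Isl1, Nrxn3, Sox2ot, Pou3f3 and Nhlh2. It had 10 UMIs in 4 Sim1 heterozygous GABA-gene cells (47.3 CPM against 6.56 CPM in other cells) and 16 UMIs in 7 control GABA-gene cells (99.0 CPM against 8.01 CPM in other cells). The log2 ratios were 2.95 (interval 1.67 to 3.90) and 3.69 (interval 2.72 to 4.46), and 6 of the 10 Sim1 heterozygous and 5 of the 16 control UMIs were in 1 cell. Against other cells weighted to the clusters in which GABA-gene cells lay, Isl1 had 2.28 in the Sim1 heterozygous and 2.30 in the control library, Dlx1 had 6.87 and 3.76, and Slc17a6 had -0.42 and -0.31. Isl1 did not follow the split in both libraries, with 8 of the 10 Sim1 heterozygous UMIs but 8 of the 16 control UMIs in Slc32a1+ cells. Six3 and Six6, SIX-family factors of the developing ventral forebrain and hypothalamus, were also higher, with log2 ratios for Six3 of 2.28 (interval 1.30 to 3.01) in the Sim1 heterozygous and 2.36 (interval 1.25 to 3.12) in the control library, which were 1.02 and 1.63 against other cells weighted to the same clusters. Six6 had 5 UMIs in 2 Sim1 heterozygous cells and 8 UMIs in 5 control cells, against 0 and 3 UMIs in the other cells. Of its 13 UMIs, 11 were in Slc32a1+ cells. Six3 and Six6 came from a ranking that required a minimum of UMIs in GABA-gene cells, which favours high ratios.

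Of the other fixed markers, Nrxn3, a presynaptic adhesion protein, had 47 UMIs in 19 Sim1 heterozygous cells (222 CPM against 116 CPM in other cells) and 77 UMIs in 34 control cells (476 CPM against 173 CPM in other cells). Its log2 ratios were 0.96 (interval 0.47 to 1.36) and 1.48 (interval 1.11 to 1.80), and it was again a gene of the Slc32a1+ cells, which had 801 CPM against 158 CPM in Gad-only cells. In the Sim1 heterozygous library its level in Gad-only cells was 115 CPM, beside 116 CPM in other cells. Against other cells weighted to the same clusters, Nrxn3 had 0.45 in the Sim1 heterozygous and 1.14 in the control library. The non-coding RNA Sox2ot had 7 UMIs in 6 Sim1 heterozygous and 5 UMIs in 4 control GABA-gene cells, with log2 ratios of 1.49 and 1.53 whose intervals reached below 0. Pou3f3, a POU-domain factor, had log2 ratios of -0.23 and -0.33 with intervals that contain 0, and over both libraries had 59.4 CPM in Slc32a1+ and 58.9 CPM in Gad-only cells. Nhlh2, a helix-loop-helix factor of developing hypothalamic neurons, went apart between the libraries, with 26 UMIs in 15 Sim1 heterozygous cells (log2 ratio 0.14, interval -0.54 to 0.65) and 4 UMIs in 4 control cells (log2 ratio -1.87, interval -4.07 to -0.83). Of the 30 Nhlh2 UMIs, 29 were in Gad-only cells. Of these 5 markers, Isl1 and Nrxn3 had ratios whose intervals lay above 0 in both libraries, Isl1 in few cells and Nrxn3 mainly through the Slc32a1+ cells.

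**Figure D3:**
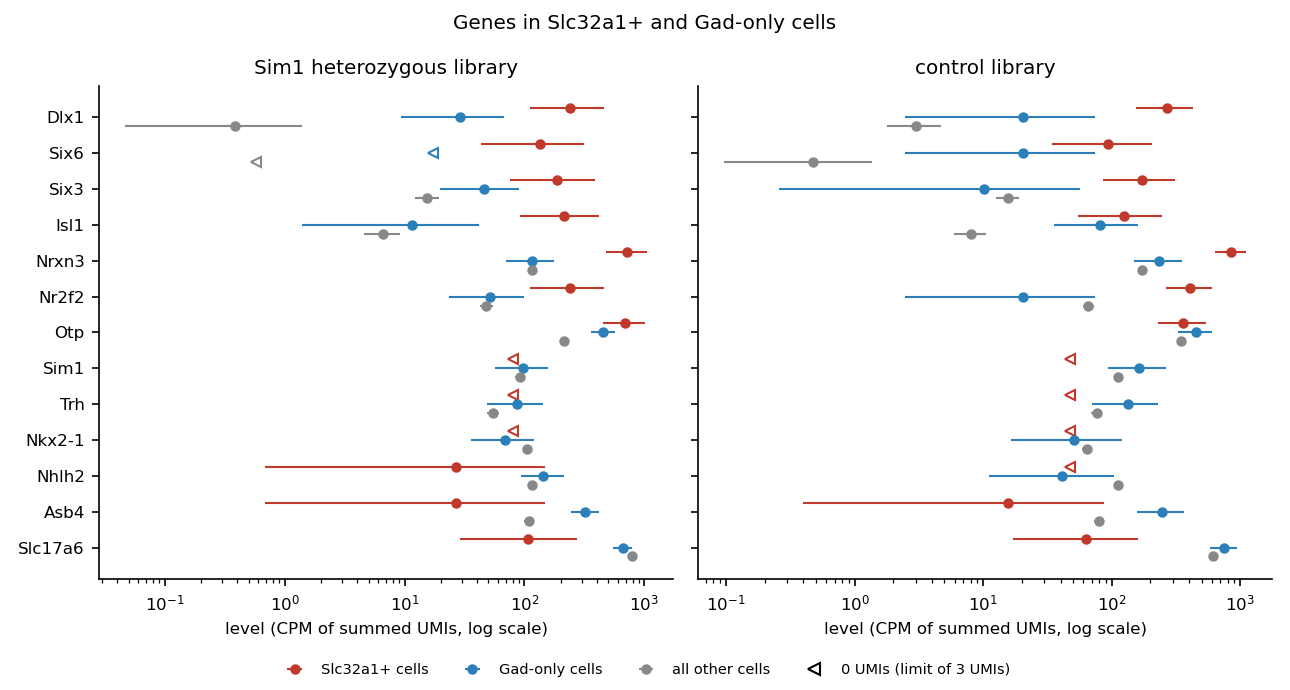
Levels (CPM of summed UMIs, log axis, exact 95% intervals) of 13 genes in Slc32a1+ cells (red), Gad-only cells (blue) and all other cells (grey) of the Sim1 heterozygous and control libraries, with open arrowheads at the limit that 0 UMIs allow. Dlx1 and Nrxn3 lie to the right in Slc32a1+ cells, and Slc17a6 and Asb4 to the left.

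Otp, a homeodomain factor of paraventricular and neighbouring neuroendocrine cells, had a ratio that depended on which cells GABA-gene cells were set against. It had 105 UMIs in 17 Sim1 heterozygous GABA-gene cells (497 CPM against 213 CPM in other cells) and 67 UMIs in 16 control GABA-gene cells (415 CPM against 348 CPM in other cells). The log2 ratio was 1.23 (interval 0.92 to 1.51) in the Sim1 heterozygous and 0.27 (interval -0.12 to 0.60) in the control library. Against other cells weighted to the same clusters it was 0.20 in the Sim1 heterozygous and -0.19 in the control library. Of the Otp cells 15 of 17 in the Sim1 heterozygous and 13 of 16 in the control library were Gad-only, where Gad-only cells were 43 of 59 and 27 of 53 GABA-gene cells. The Otp level did not follow the split, with 696 CPM in Slc32a1+ and 454 CPM in Gad-only cells of the Sim1 heterozygous library, and 361 CPM and 450 CPM in the control library. Among GABA-gene cells with Otp, 15 of 17 Sim1 heterozygous and 12 of 16 control cells held Slc17a6. With the gate applied after thinning, the Otp ratio turned to -0.92 in the Sim1 heterozygous library. The GABA-gene cells with Otp had a median of 4669 UMIs in the Sim1 heterozygous and 3551 UMIs in the control library.

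Beyond single factors, few genes stood apart from the rest of the lineage. Of 3324 genes with enough UMIs to be compared in both libraries, 1 gene (0.0301%) was at least 2-fold higher and 17 genes (0.511%) were at least 2-fold lower in GABA-gene cells in both libraries. The median log2 ratio over these genes was 0.05 in the Sim1 heterozygous and 0.06 in the control library. The gene that was higher was Asb4, a ubiquitin ligase adaptor expressed in hypothalamic neurons, with 57 UMIs in 18 Sim1 heterozygous cells (log2 ratio 1.34, interval 0.90 to 1.71) and 25 UMIs in 11 control cells (log2 ratio 1.01, interval 0.32 to 1.54). It belonged to the Gad-only cells, at 294 CPM, and Slc32a1+ cells had 19.8 CPM, below the 92.4 CPM of all other cells. The direction for Asb4 therefore turns when only Slc32a1+ cells are taken. Against other cells weighted to the same clusters, one of which was led by Asb4, its ratios were 0.16 in the Sim1 heterozygous and 0.54 in the control library, and no gene was at least 2-fold higher in both libraries.

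The other measured genes that ranked highest were neuronal genes with changes under 2-fold in at least 1 library. Nap1l5, an imprinted nucleosome assembly protein, had 2764 CPM in Sim1 heterozygous and 1924 CPM in control GABA-gene cells, against 1503 and 1207 CPM in the other cells, with log2 ratios of 0.88 (interval 0.76 to 1.00) and 0.68 (interval 0.51 to 0.84). Ahi1, a cilium protein, had log2 ratios of 0.61 in the Sim1 heterozygous and 0.45 in the control library. Nap1l2 had 0.79 and 0.75, and the imprinted translation regulator Impact had 0.77 and 0.95. Zic1, a zinc finger factor of the forebrain, had 1.20 in the Sim1 heterozygous (-0.03 against other cells weighted to the same clusters) and 0.72 in the control library, and Nsf, which recycles vesicle fusion complexes, had 0.49 and 0.61. The remaining ranked genes Fxyd6, Gnb4, Acot7 and Zcchc18 had log2 ratios between 0.35 and 0.69. Against other cells weighted to the same clusters, all genes of this paragraph had smaller ratios in both libraries. In the Sim1 heterozygous and control libraries Nap1l5 then had 0.39 and 0.42, Ahi1 0.15 and 0.17, Impact 0.13 and 0.65, and Fxyd6 0.05 and 0.34. Nap1l5 and Ahi1 did not separate Slc32a1+ from Gad-only cells by more than 0.30 on the log2 scale in either library.

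Genes lower in GABA-gene cells included those that led other clusters of the Sim1 lineage. Avp, the vasopressin gene, had 8 UMIs in Sim1 heterozygous GABA-gene cells (37.9 CPM against 1529 CPM in other cells) and 13 UMIs in control GABA-gene cells (80.4 CPM against 5631 CPM in other cells), log2 ratios of -5.17 (interval -6.55 to -4.36) and -6.02 (interval -7.04 to -5.36). Oxt, the oxytocin gene, had 1 UMI in each library, with log2 ratios of -3.29 (interval -9.59 to -1.80) and -5.29 (interval -11.60 to -3.82). No GABA-gene cell held more than 2 Avp UMIs or 1 Oxt UMI. Foxb1, a forkhead factor of the mammillary body, had 147 CPM in Sim1 heterozygous and 18.6 CPM in control GABA-gene cells, against 930 and 523 CPM in the other cells. Its log2 ratios were -2.62 (interval -3.22 to -2.16) and -4.40 (interval -7.09 to -3.27). Lhx1, a LIM factor of the same region, had log2 ratios of -1.20 and -1.77, and its divergent transcript Lhx1os had -1.38 and -1.77. Rprm had -3.39 in the Sim1 heterozygous and -1.78 in the control library, and the peptide gene Nts had -2.64 and -2.36. The neurofilament gene Nefm was the member of 15 measured pan-neuronal genes that was lower, with -1.60 and -1.87, and Zfhx4 had -1.40 and -1.65. The glial genes Apoe (1 UMI in the Sim1 heterozygous and 0 UMIs in the control library) and Fabp7 (2 and 3 UMIs) were also among the lowest. These ratios moved with the clusters in which GABA-gene cells lay: against other cells weighted to the same clusters, 2 genes and not 17 were at least 2-fold lower, the integrin gene Itgb1 (-1.18 in the Sim1 heterozygous and -1.19 in the control library) and Gm2694 (-1.47 and -1.65), both named after their values were seen. Avp then had -1.04 and -0.39, and Foxb1 -0.79 and -2.64. The clusters were built on the same UMIs. In that setting the Sim1 heterozygous ratios of Oxt (1.64), Lhx1 (0.13), Lhx1os (0.21), Apoe (0.43) and Fabp7 (0.07) turned, as did the control ratio of Fabp7 (1.69).

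**Figure D4:**
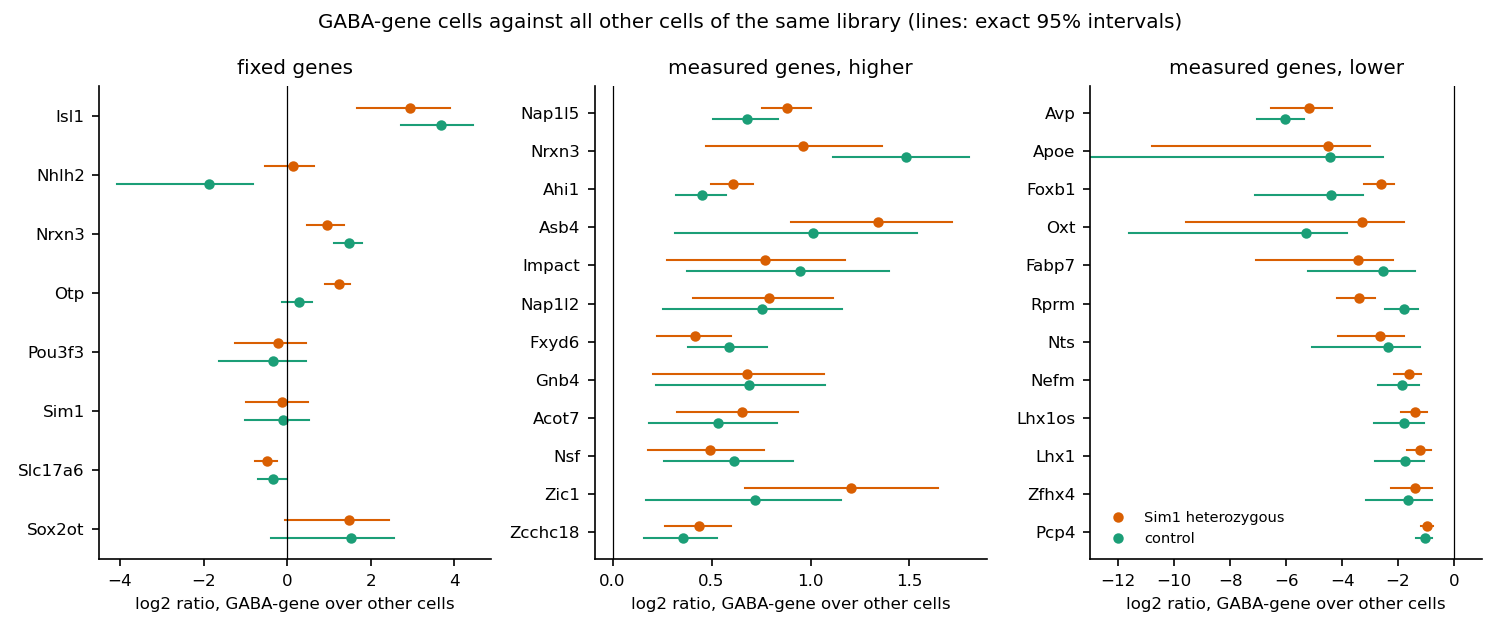
Log2 ratios of GABA-gene cells over all other cells of the same library (horizontal axis), Sim1 heterozygous in orange and control in green, with exact 95% intervals cut at the panel edge where they have no end. The panels hold the fixed genes, the 12 highest-ranked and the 12 lowest-ranked measured genes, from 3.69 for Isl1 in the control library to -6.02 for Avp.

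Gene lists gave the same picture. Of 34 genes listed as GABAergic transcription factors 28 had a UMI in GABA-gene cells. Only 5 were measured well enough to count (Nkx2-1, Zfhx3, Pou3f3, Nhlh2 and Dlk1), and none of these was at least 2-fold higher or lower. Dlk1 is not a transcription factor, and its UMIs are part of the list's sums below. Calls were rare over all 3324 measured genes as well (0.0301% higher and 0.511% lower). The sum of the list was 842 CPM in Sim1 heterozygous and 1126 CPM in control GABA-gene cells, against 731 and 774 CPM in the other cells. Within GABA-gene cells it was 1527 CPM in Slc32a1+ and 696 CPM in Gad-only cells of the Sim1 heterozygous library, and 1773 CPM in Slc32a1+ and 705 CPM in Gad-only cells of the control library. Factors described above belong to this list, so its sums are not separate from those results. The glutamatergic list ran the other way, at 187 CPM in Slc32a1+ and 954 CPM in Gad-only cells of the Sim1 heterozygous library and at 141 and 940 CPM in the control library. Since Slc17a6 made up most of that list, this is not separate from the result above. Abat, which breaks GABA down, was the only measured gene of GABA synthesis, transport and breakdown outside the gate, with log2 ratios of 0.28 and 0.58.

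None of 12 measured GABA and glycine receptor genes and none of 9 measured glutamate receptor genes was at least 2-fold higher or lower. Of all 3324 measured genes 0.0301% were called higher and 0.511% lower, so no call is the likely outcome for lists this short. The same holds for the lists without a call below. Gabra5, a GABA-A receptor subunit, had the highest ratio of the first list in the Sim1 heterozygous library, 0.84 (0.38 in the control library), and Gria2, an AMPA receptor subunit, had -0.40 and -0.25. Of 18 measured synaptic adhesion genes none was called, and the highest was the postsynaptic adhesion gene Lrfn5 in the Sim1 heterozygous library (1.28, against 0.59 in the control library) and Nrxn3 in the control library. Of 11 measured axon guidance genes 1 was lower, the ephrin receptor Epha4, with -2.05 and -1.02. None of 9 young neuron genes was called. Pan-neuronal genes had median log2 ratios of -0.03 in the Sim1 heterozygous and -0.06 in the control library, with 1 of 15 lower, so the levels of pan-neuronal genes in GABA-gene cells lay close to those of the other cells.

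Summed by list, markers of other cell types lay near the level of the other cells or were nearly absent. The astrocyte and radial glia list summed to 1410 CPM in Sim1 heterozygous and 1355 CPM in control GABA-gene cells, against 1389 and 1453 CPM in the other cells, with 10 of 15 genes detected. Its genes did not all go the same way. Of 5 measured genes 1 was at least 2-fold lower in both libraries (0.511% over all 3324 measured genes), and the median log2 ratios were 0.21 and 0.30. The other cells include the 111 glia-like cells, so near-equal sums do not measure glial RNA. The oligodendrocyte list had 89.9 CPM in Sim1 heterozygous and 149 CPM in control GABA-gene cells, against 92.7 and 107 CPM in the other cells. The microglia and blood list had 1 UMI in Sim1 heterozygous and 0 UMIs in control GABA-gene cells, and the endothelial, mural and fibroblast list had 2 UMIs and 0 UMIs. Of the pituitary list only Gh was found, with 0 UMIs in Sim1 heterozygous and 40 UMIs in 26 of 53 control GABA-gene cells. Gh had 247 CPM in these control cells and 341 CPM in the other control cells, where 925 cells held it. Gh RNA was thus spread over the control library and lacking in the Sim1 heterozygous one, in GABA-gene cells as in the others.

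Each neuropeptide gene was found in a minority of GABA-gene cells, the most widespread being Vgf, a secretory granule protein, in 16 Sim1 heterozygous and 9 control cells. Of 12 measured neuropeptide genes, 3 were at least 2-fold lower in both libraries (Avp, Oxt and Nts) and none was higher. Over all 3324 measured genes 0.511% were lower and 0.0301% higher. Against other cells weighted to the same clusters, none of the 3 was 2-fold lower in both libraries. In the Sim1 heterozygous and control libraries Avp then had -1.04 and -0.39, Oxt 1.64 and -0.08, and Nts -1.02 and -0.36. Gal, the galanin gene, had 18 UMIs in 11 Sim1 heterozygous cells and 45 UMIs in 10 control cells, with log2 ratios over other cells of -0.07 and 1.26. Over both libraries Gal had 425 CPM in Slc32a1+ and 73.6 CPM in Gad-only cells, but 36 of the 43 Slc32a1+ UMIs were in 4 control cells. In the Sim1 heterozygous library the log2 ratio of Slc32a1+ over Gad-only cells was 1.63, with an interval of -0.04 to 3.07 that contains 0. Trh, made by hypophysiotropic neurons, had 15 UMIs in 4 Sim1 heterozygous and 13 UMIs in 5 control cells, and all 28 UMIs were in Gad-only cells. Penk had 20 UMIs in 6 Sim1 heterozygous and 5 UMIs in 3 control cells. Npy was in 1 Sim1 heterozygous and 2 control cells, and the 58 control UMIs were in Slc32a1+ cells. The 3 Sim1 heterozygous Npy UMIs were in a Gad-only cell, so the side of the split rests on few cells for Npy as for Trh.

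The comparison of Sim1 heterozygous with control GABA-gene cells rested on 211286 and 161620 UMIs. Of 2757 genes with at least 30 UMIs over both, 89 (3.23%) were at least 2-fold higher and 58 (2.1%) at least 2-fold lower in the Sim1 heterozygous cells, with a median log2 ratio of 0.01. Many of the largest differences came from 1 cell or were shared by the whole library. Hspa8, a heat shock chaperone, had 81 UMIs in 25 Sim1 heterozygous cells and 3 UMIs in 3 control cells (log2 ratio 3.97, interval 2.77 to 6.68), and the other cells gave the same ratio, 3.97. Cwc22, a splicing factor, had 1.71 in GABA-gene cells and 1.85 in other cells. Actb had -0.75 in GABA-gene cells and -0.55 in other cells. These ratios were shared by GABA-gene and other cells of the libraries.

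Other genes that were higher in the Sim1 heterozygous GABA-gene cells had a smaller ratio in the other cells. Foxb1 had 31 UMIs in 13 Sim1 heterozygous cells and 3 UMIs in 2 control cells (log2 ratio 2.61, interval 1.30 to 5.34, against 0.83 in other cells). Cacna2d1, a calcium channel subunit, had 135 UMIs in 35 Sim1 heterozygous and 31 UMIs in 16 control cells (1.70, interval 1.16 to 2.35, against 0.35 in other cells), and it is a gene of the Gad-only cells, with 567 CPM against 119 CPM in Slc32a1+ cells. Since Gad-only cells were more of the Sim1 heterozygous set, the ratio was taken within them as well, where it was 1.43 (interval 0.85 to 2.14). Foxb1 within Gad-only cells had 2.03 (interval 0.70 to 4.75), and Lhx1 had 1.85 (interval 0.81 to 3.57). Arhgap24 (2.04), Sparcl1 (2.05), Dgkk (1.85) and Fbxo41 (2.15) completed the genes spread over several cells. Cck (1.65) and Cdkn1c (1.78) had 52 of 81 and 32 of 53 Sim1 heterozygous UMIs in 1 cell, and both turned to below 0 when a UMI of Slc32a1 and of a Gad gene was required.

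The genes that were lower in the Sim1 heterozygous GABA-gene cells were mostly peptide genes of a few control cells. Pmch, the melanin-concentrating hormone gene, had 4 UMIs in 3 Sim1 heterozygous cells and 957 UMIs in 7 control cells, of which 583 were in 1 cell (log2 ratio -7.97, interval -10.17 to -6.93, against -1.64 in other cells). Npy had 3 UMIs in 1 Sim1 heterozygous cell and 58 UMIs in 2 control cells (-4.27). Cartpt had 7 UMIs in 4 Sim1 heterozygous cells and 44 UMIs in 3 control cells, 42 of them in 1 cell (-2.88). For Npy and Cartpt, nearly all control UMIs were thus in 1 or 2 cells. Pmch was also lower within Slc32a1+ cells, with 3 UMIs in the Sim1 heterozygous and 63 UMIs in the control library (log2 ratio -3.23, interval -5.94 to -2.01). Sst (-2.35, with 30 of 42 control UMIs in 1 cell), Tac1 (-2.10, with 26 of 58 in 1 cell), Igf1 (-2.19, with 18 of 34 in 1 cell) and Gal (-1.66, with 17 of 45 in 1 cell) also had many of their control UMIs in 1 cell. With at least 5 GABA-gene UMIs required, Cartpt (0.35) and Tac1 (1.20) turned to above 0, and Sst did so with at least 3 (0.72). Trim33, a chromatin regulator, was spread more evenly, with 8 UMIs in 8 Sim1 heterozygous cells and 23 UMIs in 16 control cells (-1.80, interval -3.28 to -0.70, against 0.16 in other cells).

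GABA-gene cells did not form a group of their own when the cells were clustered without the 3 GABA genes and Sim1. Of the 112 cells 100 (89.3%) lay in 5 of 15 clusters, which held 49.1% of all cells. The cluster led by Gsc and Six3 held 28 of them among 553 cells, 15 of 187 Sim1 heterozygous cells (8.02%) and 13 of 366 control cells. The clusters led by Esrrg and Dmrta2 (22 of 635 cells), Isl1 and Ecel1 (19 of 548), Asb4 and Bsx (18 of 350) and Emx2 and Emx2os (13 of 498) followed. Gad2 was itself among the leading genes of the Isl1 and Ecel1 cluster. That cluster was shallow, with medians of 752 UMIs (Sim1 heterozygous) and 1277 UMIs (control), against 2226 and 2049 UMIs in the Gsc and Six3 cluster. The shares of the clusters were thus not compared at equal depth. The kinds of GABA-gene cells lay in different clusters, Slc32a1+ cells being 13 of 28 in the Gsc and Six3 cluster and 12 of 19 in the Isl1 and Ecel1 cluster, but 2 of 18 in the Asb4 and Bsx cluster and 2 of 13 in the Emx2 and Emx2os cluster. In 5 clusters with 1872 cells there was no GABA-gene cell, which allows a share of up to 0.160%. These were led by Nts and Ctxn3, Tanc1 and Cpne9, Oxt and Avp, Crh and Arhgap36, and Gfap and Ednrb. Cluster positions use the same UMIs as the genes above and are given as a description.

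**Figure D5:**
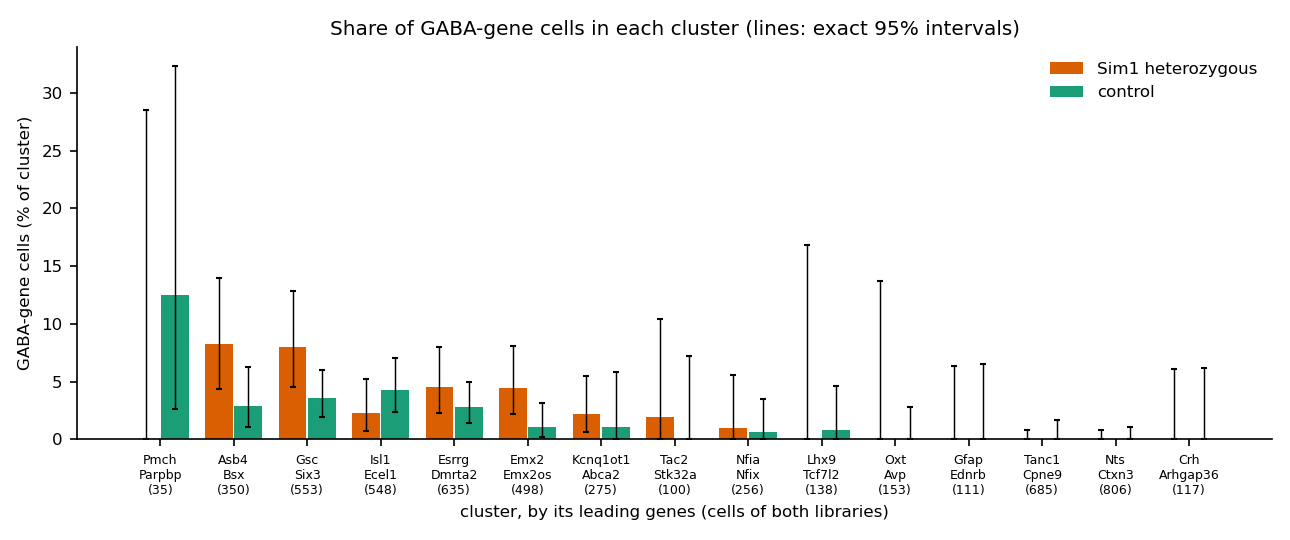
Share of GABA-gene cells (percent of the cluster's cells) in 15 clusters named by their leading genes, with Sim1 heterozygous bars in orange left of control bars in green, exact 95% intervals, and the cells of both libraries in parentheses. No cluster was made mainly of GABA-gene cells, and in the Gsc and Six3 cluster they were 8.02% of the Sim1 heterozygous cells.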

How the data were processed

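The authors deposited raw UMI counts per gene and barcode, as 1 table for each library and 1 merged table of 24905 genes, 5283 barcodes and 11922773 UMIs. The merged table was used. Per the submitters' processing notes, bcl2fastq, Picard, STAR 2.6.0b and Seurat 3 were used with mm10. No source used here names the annotation, the counter or its strand setting. Per the labels' protocols, only 3' ends were amplified, so counts cover 3' tags. The labels give 6 pups per pool, while the protocol text names 5 or 6.

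Barcodes with under 300 genes (22 Sim1 heterozygous, 1 control) were left out. The highest mitochondrial share kept was 9.78%. Of the symbols, 23481 (94.3%) matched GENCODE M21, the source of coordinates. Counts were summed over cells and scaled to CPM. Log2 ratios had 1 UMI added to each sum and conditional exact binomial intervals. Levels had exact Poisson intervals and shares had Clopper-Pearson intervals, all at 95% and covering counting error only, since UMIs of 1 cell are not independent. A count of 0 was given a floor of 3. A gene was measured against other cells when its UMIs over all kept cells times the UMI share of GABA-gene cells was at least 10 in each library, and between genotypes at 30 UMIs over both. A call is a 2-fold change. No test was run, since cells are not replicates. For thinned shares, cells with under 857 UMIs were left out, 6 of 59 and 0 of 53 GABA-gene cells among them.

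The named genes are the given markers, the 12 genes higher and 12 lower against other cells and the 10 higher and 10 lower between genotypes whose interval bound nearest 0 was farthest from 0, and members of the gene lists. The cells, lists and rules were chosen with earlier results of these data known. The split by Slc32a1 and the ranking of low-count genes (such as Dlx1, Six3 and Six6) were added after seeing the values, and Foxb1 and Lhx1 within Gad-only cells were named after their values were seen. The low-count ranking took only genes with a minimum of UMIs in the GABA-gene cells of each library, which favours high ratios. Some genes are not reported here. Clusters came from scanpy 1.11.5 (log-normalised counts, variable genes without the GABA genes, Sim1, Irx3, Irx5, sex-linked, mitochondrial and haemoglobin genes, Leiden). The scripts ran in Python 3.11.15 with pandas 2.3.3, scipy 1.17.1 and numpy 2.4.6. The ratio and interval code was tested on simulated counts.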

Additional observations from a re-analysis of the deposited data

Results flagged for a closer look

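3 named genes were at least 2-fold lower in GABA-gene than in other cells of the Sim1 heterozygous library and at least 2-fold higher in those of the control library. Differences between the libraries in these ratios were not tested, since there was 1 library per genotype. Pmch had a log2 ratio of GABA-gene over other cells of -4.05 in the Sim1 heterozygous library and 2.28 in the control library. The control value came from 957 UMIs in 7 cells, of which 583 were in 1 cell, and 3 of the control GABA-gene cells lay in the cluster led by Pmch and Parpbp. Npy had -1.82 in the Sim1 heterozygous and 3.22 in the control library, where its 58 UMIs were in 2 cells. Tac1 had -1.04 in the Sim1 heterozygous and 1.15 in the control library, where 26 of 58 UMIs were in 1 cell. Cartpt (-2.63 in the Sim1 heterozygous and 0.99 in the control library), Sst (-1.69 and 0.99), Cacna2d1 (0.52 and -0.83) and Cdkn1c (1.49 and -0.91) also had opposite signs with intervals that did not contain 0, but with a change under 2-fold in at least 1 library.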

How the results depend on the processing

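No paired analysis was possible because each genotype had 1 library. Shares of GABA-gene cells moved to 1.79% (Sim1 heterozygous) and 1.14% (control) with a gate of 3 UMIs, 0.774% and 0.356% with 5 UMIs, 0.570% and 0.855% with UMIs of 2 of the genes, 0.570% and 0.820% with Slc32a1 and a Gad gene, and 1.03% and 0.528% or 1.71% and 1.18% with the gate applied after thinning to 857 or 1583 UMIs. With 2 genes or Slc32a1 and a Gad gene required, the control library had the higher share. The thinned share with Slc17a6 moved to 9.09% in the Sim1 heterozygous library under both of these gates, to 8.33% and 8.70% in the control library, to 7.69% in either library with Slc32a1+ cells alone, to 10% in the control library with 5 UMIs, and to 47.7% in the Sim1 heterozygous library at the median depth. Where the gate was stricter or cells were thinned, fewer genes could be compared.

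The count of genes higher against other cells was 0 with a gate of 5 UMIs, of 2 genes or of Slc32a1 and a Gad gene, with Slc32a1+ cells alone, 3 times the low-count minimum, every cell thinned, other cells weighted to the same clusters or median scaling. It was 3 with the mean of CPM per cell and 6 with a pseudocount of 5, which favours the smaller sum. The count of lower genes was 6, 8 and 7 under those gates, 10 in Slc32a1+ cells, 11 without cells holding Slc17a6, 6 with the higher minimum, 9 with thinning, 2 with weighting and 2 with the gate after thinning. Between genotypes, higher and lower genes were 36 and 37 with 5 UMIs, 19 and 29 with 2 genes, 13 and 20 with Slc32a1 and a Gad gene, 3 and 3 with the gate after thinning, 19 and 23 without Slc17a6 cells, 152 and 135 with the mean of CPM per cell, 41 and 38 with a pseudocount of 5, and 7 and 5 with the higher minimum, and 38 were lower with a gate of 3 UMIs.

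Over the named genes, 920 of 1254 alternative values stayed within their interval, 305 moved and 29 reversed. Asb4 reversed in the Sim1 heterozygous library to -0.84 under both gates that ask for more than 1 gene and to -1.02 in Slc32a1+ cells, and in the control library to -0.55 (3 UMIs), -1.50 (2 genes), -1.23 (Slc32a1 and a Gad gene), -0.77 (without Slc17a6 cells) and -1.35 (Slc32a1+ cells). Weighting to the same clusters gave -0.026 for Zic1, 0.43 for Apoe, 1.64 for Oxt, 0.073 and 1.69 (control) for Fabp7, 0.21 for Lhx1os and 0.13 for Lhx1. The gate after thinning gave 0.0060 for Lhx1 (control), 0.40 for Zfhx4 and -0.92 for Otp, and Zfhx4 had 0.23 under both gates that ask for more than 1 gene. Between genotypes, Cck had -1.45 (2 genes) and -1.71 (Slc32a1 and a Gad gene), Cdkn1c -0.13 (Slc32a1 and a Gad gene) and -0.37 (without Slc17a6 cells), Cartpt 0.35 (5 UMIs) and 3.21 (without Slc17a6 cells), Sst 0.72 (3 UMIs), and Tac1 0.0074 (3 UMIs) and 1.20 (5 UMIs). Where no construction is named, the cause was not tested. Depth limits the Slc32a1, Gad1 and factor counts, which were often under 20 UMIs per library.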

Other observations

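Besides the factors described, several genes with too few UMIs for the main comparison were higher in GABA-gene cells of both libraries. The 1899 such genes considered needed a minimum of UMIs in the GABA-gene cells of each library, which favours genes that are high there. Of these, 15 had intervals above 0 in both libraries, so their ratios are a description. Gfra2, a co-receptor for the growth factor neurturin, had log2 ratios of 1.69 (interval 0.37 to 2.56) in the Sim1 heterozygous and 1.95 (interval 0.54 to 2.83) in the control library. Igf1 had 1.51 and 3.50, with 18 of the 34 control UMIs in 1 cell. Phlda1 had 1.48 and 1.62, and the glucose transporter family gene Slc2a6 had 1.84 and 2.87.

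In Slc32a1+ cells, Pou3f4, Nkx2-1 and Nxph4 were among the genes that joined Sim1 and Trh at 0 UMIs over both libraries. In Gad-only cells Pou3f4 had 18 UMIs, and Nkx2-1 and Nxph4 had 17 UMIs each. At the floor of 3 UMIs the Slc32a1+ level of Nkx2-1 was 2.11-fold lower than the Gad-only level, a fold that leaves out counting error. These genes were picked for their 0 among all genes, so the zeros are a description.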
